A study of Mus musculus with 40 samples.

Results

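The proteasome subunit genes of mouse oocytes and zygotes were taken by name, as every gene whose symbol begins with Psm, a letter from a to g and a digit. In all, 44 of the 11323 genes listed in the deposited tables matched. Of these, 42 encode parts of the proteasome or proteins that assemble or regulate it, and 2 matched by name only: Psmc3ip, a meiotic recombination factor, and Psme3ip1, which binds an activator of the proteasome. RNA was sequenced from 5 cell groups. IMZ are pronuclear zygotes from oocytes that were both matured and fertilized in vitro, and IVZ are pronuclear zygotes matured and fertilized in vivo. IVM are oocytes matured in vitro without their cumulus cells, COC are oocytes matured in vitro inside cumulus-oocyte complexes, and IVO are oocytes matured in vivo. Each was measured as polysomal RNA, a fraction rich in messages that carry several ribosomes, and as unfractionated total RNA, with 4 libraries in each of the 10 groups. IMZ and IVZ differ in both maturation and fertilization, and the labels do not say whether the oocytes behind IMZ were denuded or cumulus-enclosed. The labels give no strain, age, genotype or number of pooled cells.

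The proteasome degrades proteins tagged with ubiquitin. Its core particle is a barrel of α rings and β rings, with the proteolytic sites on β subunits inside, and its regulatory particle recognises, unfolds and feeds in the substrate by means of a ring of ATPases. Fully grown oocytes stop transcription, so that maturation and the start of embryonic development run on stored messenger RNA, and the exit from meiosis needs the proteasome to destroy cyclin B and securin. By role, the 42 genes were 7 α ring subunits, 7 β ring subunits, the thymic β subunit Psmb11, 6 ATPases, 11 non-ATPase subunits of the regulatory particle and 3 chaperones of its assembly, 3 activators, 1 inhibitor and 3 chaperones of core assembly.

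All 14 oocyte markers in the list (Gdf9, Bmp15, the zona pellucida genes and others) were listed in every group. Of 22 cumulus and granulosa markers, 2 to 4 were listed in a total RNA group, with a summed level of at most 6.1 RPKM (reads per kilobase of gene and per megaread of the library), and 0 in any polysomal group. Of 9 leukocyte markers, Laptm5 alone was listed, at most at 1.42 RPKM and in total RNA only, and 0 of 3 erythroid markers was listed. No deposited table lists a gene that is under 0.2 RPKM in any of its 8 libraries. A marker present in 1 group or in some libraries only could thus be missing, so an unlisted marker does not show that its cells were absent. Of 4 sperm markers, Prm2 alone was listed, in total RNA of every group and in polysomal RNA of all but IVM oocytes. In total RNA it was at 5.29 to 8.7 RPKM in IMZ and 5.22 to 9.82 RPKM in IVZ zygotes. Oocytes were no lower, at 9.03 to 11.9 (IVM), 7.62 to 11 (COC) and 5.52 to 13.4 RPKM (IVO). Depth, read back from the steps between low RPKM values, was 46.6 to 63.2 M (megareads) in the 20 total RNA libraries. In polysomal RNA it could be read back for 12 of 20 libraries, at 4.92 to 26.0 M. Libraries within a deposited table correlated across genes with a Spearman rho of 0.983 to 0.997 in total RNA and of 0.651 to 0.963 in polysomal RNA. These ranges hold pairs from the same group and pairs from different groups. Polysomal libraries thus agreed less with one another, and their values are less certain. RPKM is relative to the library, so fewer cells and less RNA per cell cannot be told apart. It is a value per length, so levels of different genes may be compared.

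Several total RNA libraries stood apart for these genes. IVM replicate 2 held the highest of the 4 values for 29 of 44 members (65.9%, against 34.8% of all genes listed), and COC replicate 3 did so for 32 of 44 members (72.7%, against 28.8%). IMZ replicate 4 was highest for 24 of 44 members (54.5%, against 24.5%). The IVO libraries fell into pairs: replicates 1 and 3 both lay above replicates 2 and 4 for 22 of 43 members (27.6% of all genes) and both below them for 15 (44.2% of all genes). Singly, replicate 1 was the highest for 7 of 43 members (16.3%, against 16.7%) and replicate 3 for 19 (44.2%, against 25%). Psmd4, the subunit of the regulatory particle that binds ubiquitin chains, was at 531, 264, 523 and 271 RPKM. The same gene was at 271, 499.8, 284 and 259 RPKM in IVM oocytes and at 263, 281, 403 and 271 RPKM in COC oocytes. Psmd7, a structural subunit of the lid of the regulatory particle, split in the same way, with 38, 77.2, 37.5 and 36.8 RPKM in IVM oocytes and 91.8, 34.8, 85.8 and 35 RPKM in IVO oocytes. Comparisons that use IVM replicate 2, COC replicate 3 or IVO replicates 1 and 3 of total RNA were run again without these 4 libraries, and the calls that changed are given below. The libraries were picked after their member values were seen, partly for high values, so leaving them out lowers the oocyte level of such members by construction, and 2 IVO libraries remain.

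Stored oocyte messenger RNAs are often translated after their tail is lengthened, which needs a poly(A) signal and a U-rich cytoplasmic polyadenylation element near the end of the 3′ untranslated region. The sequences that follow are shown because they are the sites of this kind that the members carry. They are 30-base windows from GENCODE release M21 transcripts (build GRCm38), 5′ to 3′ on the transcript strand and written with T for U. The search was for TTTTAT or TTTTAAT (element) and AATAAA or ATTAAA (signal) on that strand only. An element lay in the last 100 bases in 6 of 44 members (13.6%, against 19.3% of the 11250 genes with a transcript), and capitals mark it here. In Psmb1 and Psmb3 the element and the signal overlap and are capitalised as 1 run, and in Psmg3 both are capitalised.
Psma1: ctataccaatgtTTTTATatgaagaaaata
Psma5: gtgtgtgtgtttTTTTATgaagtctgtaca
Psmb1: ttttgcttttTTTTAATAAActtctgttct
Psmb3: ttgtttttctTTTTAATAAAattgcctttc
Psmg1: tgatgttttgtaTTTTATtctggcttggga
Psmg3: aagatttTTTTATtaaaAATAAAtctaaag

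The elements of these 6 genes began 71 bases (Psma1), 53 bases (Psma5), 26 bases (Psmb1), 24 bases (Psmb3), 51 bases (Psmg1) and 46 bases (Psmg3) before the end of the transcript. AATAAA lay in the last 40 bases in 30 of 44 members (68.2%, against 61.2% of all genes). The next 4 windows show that signal in genes whose RNA was lower in zygotes and that carried no element in the last 100 bases.
Psmb6: gacgcagaagctAATAAAcagtttgttaaa
Psmb5: ctccatggctatAATAAAtaatagtacctc
Psmc3: gctaaagttgatAATAAAaggtgttttctg
Psmc4: attggtttagtcAATAAAtggacgtgattg

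The members' transcripts are short, with a median length of 1540.5 bases against 2964 bases for all genes, and a median 3′ untranslated region of 295 bases against 950.5 bases.

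Proteasome RNA was abundant in every group. In total RNA the median member was at 25.8 RPKM in IMZ and 28.3 RPKM in IVZ zygotes, and at 38.2, 37.5 and 40.4 RPKM in IVM, COC and IVO oocytes. The median of all listed genes was 6.25 RPKM in IMZ zygotes, 6.24 in IVZ zygotes, 6.6 in IVM oocytes, 6.45 in COC oocytes and 6.55 in IVO oocytes. Psmd4 was the highest member in every group and fraction: in total RNA it averaged 222 ± 43.2 RPKM in IMZ, 262 ± 31 in IVZ, 329 ± 114 in IVM, 304 ± 66.3 in COC and 397 ± 150 in IVO (SD, n = 4 each). Its groups overlapped, apart from IMZ libraries 1 to 3, which lay below all the oocyte libraries. Psma7, an α ring subunit, came next in total RNA in all 5 groups, at 148 to 177 RPKM on average, followed in differing order by the ATPase Psmc1, the α subunit Psma4 and Psme3, an activator of the core particle in the nucleus. Neighbours among these last 3 did not differ beyond their spread in most groups: in IVO oocytes Psmc1 averaged 97.9 ± 19.7, Psma4 92.1 ± 24.9 and Psme3 80.4 ± 7.7 RPKM (SD, n = 4).

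At the low end of total RNA stood Psmd13, a lid subunit, at 0.235 to 0.717 RPKM on average in the 4 groups where it was listed, and Psmb11, at 0.396 to 0.545 RPKM. Psmb11 lies beside Psmb5 on the opposite strand, and since nothing states whether the counting used strand, its reads are uncertain. Psmb5, which carries the chymotrypsin-like site, was the lowest of the 7 β ring genes in total RNA. It had 1.72, 1.84, 1.54 and 1.28 RPKM in IMZ zygotes and 1.69, 1.42, 1.67 and 1.28 in IVZ zygotes. Oocytes had 4.23, 4.34, 5.01 and 4.93 (IVM), 4.21, 4.79, 4.12 and 5.11 (COC) and 3.44, 3.76, 3.34 and 4.18 RPKM (IVO). Every zygote library was below every oocyte library for this gene. Processed pseudogenes of Psmb5, Psmb6 and Psmb7 exist in the annotation, and the labels do not say how reads shared with them were assigned. Psme2, a subunit of the interferon-inducible activator, was also low, at 1.14, 0.986, 1.31 and 1.39 RPKM in IMZ zygotes and 5.83, 3.1, 5.9 and 3.11 RPKM in IVO oocytes.

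In vitro maturation was first compared with in vivo maturation in oocyte total RNA. Tests were made with limma on log2(RPKM + 1) over all genes of a table, with Benjamini-Hochberg adjustment and a threshold of 0.05. That scale understates the change of low genes. Between IVM and IVO oocytes, 0 of 43 members passed, while 56 of all 10996 genes were higher (0.509%) and 0 were lower (0%). The 43 log2 fold changes ran from -0.42 to 0.27 with a median of -0.02, against 0.03 over all genes. With p under 0.05 before adjustment, 3 members were higher and 0 lower, among 1198 of all genes. They were Psmb5, Psmb6, which carries the caspase-like site, and Psmg1, a chaperone of α ring assembly. Psmb6 had 54, 48.5, 54.5 and 53.8 RPKM in IVM oocytes, against 43.2, 46.6, 44 and 49.1 RPKM in IVO oocytes. Its groups overlapped at 1 IVM library, and its log2 fold change was 0.20 ± 0.07 (SE, limma adjusted p = 0.338). Psmb5 had a log2 fold change of 0.27 with a 95% interval of 0.07 to 0.46 (limma adjusted p = 0.299), and Psmg1 one of 0.20 (adjusted p = 0.364). Psmb7, which carries the trypsin-like site, had 0.12. Without the 4 libraries that stood apart, Psmb3, a structural β subunit, was higher in IVM oocytes (0.25 ± 0.06, limma adjusted p = 0.042), while 403 of all genes were higher (3.66%) and 159 lower (1.45%).

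Between COC and IVO oocytes, 0 of 43 members passed, and 1 of all 10981 genes was higher (0.00911%) and 0 lower (0%). Unadjusted, 2 members were higher, again Psmb5 (0.25, limma adjusted p = 0.673) and Psmg1 (0.17, limma adjusted p = 0.673), among 777 of all genes. Psmb6 came next at 0.14. Without the 4 libraries 0 members passed as well. This comparison uses the same IVO libraries as the one before, so the likeness of the values is not a second observation. Between IVM and COC oocytes, 0 of 44 members passed, with 4 of all 11152 genes higher (0.0359%) and 1 lower (0.00897%), and 0 passed without the 4 libraries. The member nearest to the threshold was Psmd13, at 0.681, 0.718, 0.759 and 0.71 RPKM in IVM oocytes and 0.273, 0.45, 0.378 and 0.522 RPKM in COC oocytes. Those values do not overlap, but all are near the lowest level a table lists (log2 fold change 0.29 ± 0.06, limma adjusted p = 0.163). Psmc5, an ATPase, followed at -0.11 and Psmb1, a structural β subunit, at 0.15. At an unadjusted p under 0.05 there were 630 of all genes and 1 member. In the authors' deposited table for each of these 3 comparisons, 0 members passed once their p-values were adjusted by Benjamini-Hochberg. Of all genes, 98, 18 and 30 were higher and 6, 10 and 4 lower (IVM against IVO, COC against IVO and IVM against COC).

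Polysomal RNA of the oocytes gave no limma call either. With limma, 0 of all genes (0%) passed between IVM and IVO (5093 genes, 33 members), COC and IVO (7527 genes, 42 members) or IVM and COC oocytes (5018 genes, 34 members), while 152, 394 and 223 of all genes had an unadjusted p under 0.05. Among members, Psmc3ip was higher at that level in COC than in IVO oocytes (1.07), Psmb5 was higher (1.08) and Psmd4 lower (-0.65) when IVM was set against COC, with limma adjusted p = 0.834, 0.878 and 0.878. Between IVM and IVO oocytes the smallest p-values among members were those of Psmd5, a chaperone of the ATPase ring (0.81), Psmb5 (0.77) and the ATPase Psmc3 (-1.23), each with a limma adjusted p of 0.985. For Psmd5 the 95% interval of that difference ran down to 0 and up to 1.63, so the polysomal libraries leave room for sizeable differences. In the authors' deposited tables, adjusted here by Benjamini-Hochberg, 0 members passed. Of all genes, 3, 2 and 0 were higher and 9, 23 and 0 lower (IVM against IVO, COC against IVO and IVM against COC). The authors marked polysomal IVM replicate 1 as excluded from their analysis, while the limma fits kept it, so the results with IVM rest on unlike sets of libraries. Without any 1 library, that one included, limma still called 0 members. An interaction of maturation with fraction gave 0 members for each of the 3 comparisons.

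In vitro zygotes differed from in vivo zygotes in a few α ring and ATPase genes. In total RNA, Psma5, Psma1 and Psmc6 were lower in IMZ than in IVZ zygotes, while 0 of 44 members were higher, and over all 10824 genes 55 were higher (0.508%) and 125 lower (1.15%). Psma5, an α subunit, had 10.4, 9.3, 11.6 and 11.8 RPKM in IMZ zygotes, against 15.5, 17.7, 16.6 and 15 RPKM in IVZ zygotes. The highest IMZ library lay below the lowest IVZ library, and the log2 fold change was -0.55 ± 0.09 (SE, limma adjusted p = 0.0169). Psma1, an α subunit, had 25.9, 23, 25.8 and 24.3 RPKM in IMZ and 31.3, 31.5, 30.7 and 29.1 RPKM in IVZ zygotes, again without overlap (-0.30 ± 0.06, limma adjusted p = 0.0369). Psmc6, an ATPase, had 15.9, 14.7, 14.6 and 16.9 RPKM in IMZ and 19.6, 20.4, 20.3 and 18.8 RPKM in IVZ zygotes, also without overlap (-0.33 ± 0.07, limma adjusted p = 0.0363).

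Around these 3 genes the members leaned the same way. The median member had a log2 fold change of -0.14, against a median of all genes of about 0, and 14 of 44 members were lower and 2 higher at an unadjusted p under 0.05, among 2047 of all genes (18.9%). Groups did not overlap for 8 members that were lower, against 6.39% of all genes, and for 1 that was higher, against 4.65%. By role, all 7 α ring genes lay below the median of all genes, from -0.55 to -0.18, and so did all 6 ATPases. Of the β ring genes 5 of 7 lay above it. The largest difference among the β ring genes was that of Psmb3, at 15.3, 15.7, 18.1 and 18.3 RPKM in IMZ and 12.9, 13.5, 13.9 and 13.5 RPKM in IVZ zygotes (0.30, limma adjusted p = 0.0663). Psmg4, a chaperone of core assembly, had -0.44 (limma adjusted p = 0.0933), and Psmc3ip had -0.31 (adjusted p = 0.0904).

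The 3 calls depended on single libraries. With limma, none was left without IMZ replicate 1, and 1 was left without IMZ replicate 2 or 3 or without IVZ replicate 1, 3 or 4, while 7 members passed without IMZ replicate 4, the library that was highest for most members. Psma5 kept its call in 7 of these 8 fits, and Psma1 and Psmc6 each kept theirs in 2. Psmc6 also missed the threshold with median of ratios scaling (limma adjusted p = 0.0513). With a replicate block Psma1 and Psmc6 both missed it (limma adjusted p = 0.0954 and 0.103). In the authors' deposited table, with p-values adjusted here by Benjamini-Hochberg, 4 members were lower: Psma5 (log2 fold change -0.6, adjusted p = 0.00146), Psmc6 (-0.36, 0.00379), Psma1 (-0.32, 0.0154) and the α subunit Psma3 (-0.33, 0.0459), among 159 of all genes higher and 270 lower.

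**Figure D1:**
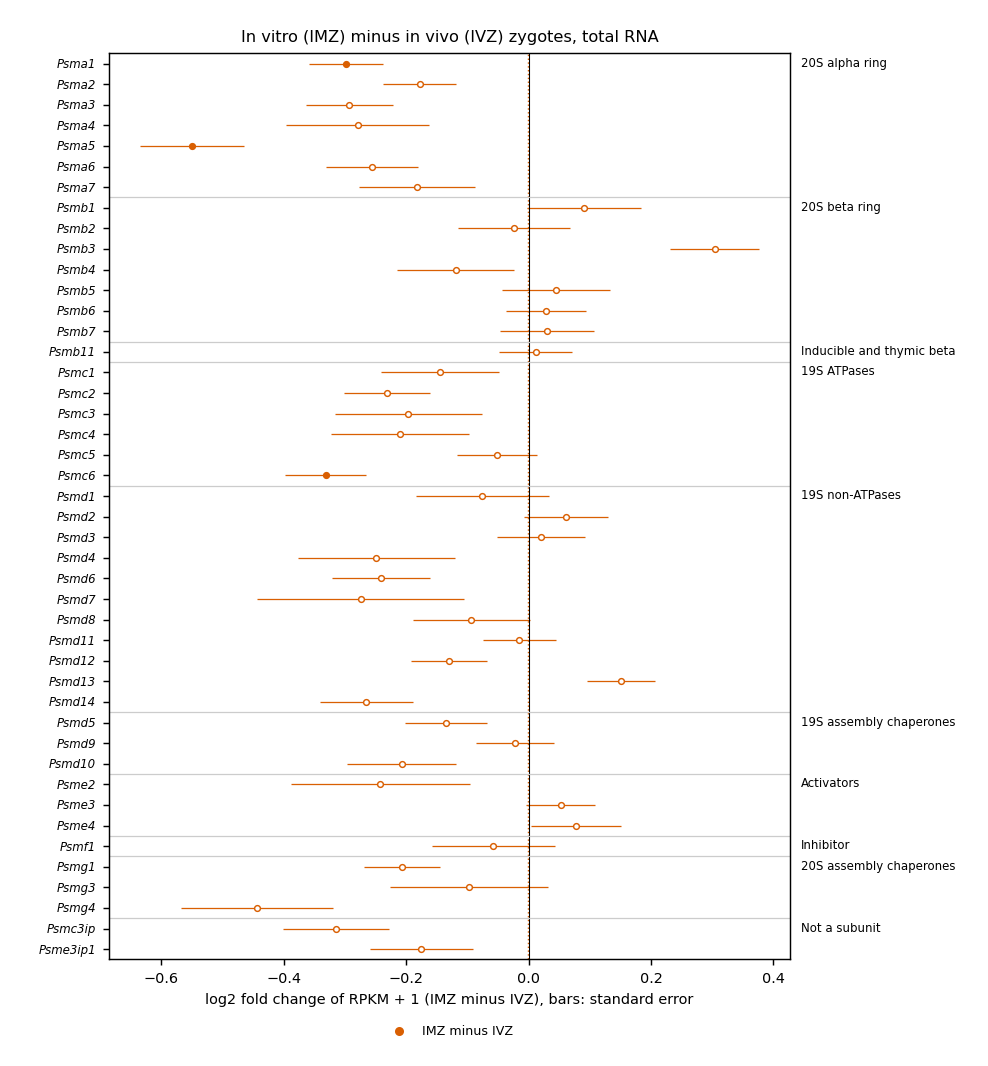
Log2 fold change of RPKM + 1 in total RNA (IMZ minus IVZ zygotes, n = 4 each) for the 44 members, grouped by role; bars are standard errors, filled points passed an adjusted p of 0.05 and open points did not, and the dotted line is the median of all genes. The 7 α ring genes lie left of the line, from -0.55 to -0.18, and 5 of the 7 β ring genes lie right of it.

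In polysomal RNA, 0 members and 0 of all 6336 genes (0%) passed between IMZ and IVZ zygotes by limma. Unadjusted, 5 of 40 members were lower and 1 higher, among 360 of all genes. The smallest p-values were those of Psmd10, a chaperone of the ATPase ring (-1.21), Psmc5 (-1.05) and Psmg4 (-1.07), with limma adjusted p = 0.777, 0.777 and 0.789. Psma5 was at 18.7, 29.6, 20.3 and 23.7 RPKM in IMZ and 16.4, 48, 45.4 and 35.9 RPKM in IVZ zygotes, groups that overlap widely. In the authors' deposited table, adjusted here, Psma4 (-1.16, adjusted p = 0.026) and Psmd10 (-1.07, adjusted p = 0.0386) were lower, among 54 of all genes higher and 109 lower. The authors marked polysomal IVZ replicate 1 as excluded from their analysis, while the limma fit kept it, so these results rest on unlike sets of libraries. Without any 1 library, that one included, limma still called 0 members. The interaction of zygote origin with fraction gave 0 members by limma.

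Among the comparisons between cell groups, the largest differences lay between zygotes and oocytes. Oocyte and zygote libraries share no deposited table, but RPKM is scaled within a library, and libraries held in more than 1 table had the same values in each. In total RNA, 16 of 43 members were lower in IVZ zygotes than in IVO oocytes (37.2%, against 14.1% of all genes) and 0 were higher (against 2.1% of all genes). In vitro, 26 of 44 members were lower in IMZ zygotes than in IVM oocytes (59.1%, against 27.2% of all genes) and 2 were higher (8.8% of all genes), and 27 were lower than in COC oocytes (61.4%, against 26.2%) and 2 higher (11% of all genes). The median log2 fold change of the members was -0.17 for IVZ against IVO, -0.40 for IMZ against IVM and -0.37 for IMZ against COC, and that of all genes was -0.02, -0.06 and -0.04. Both in vitro comparisons use the same IMZ libraries, so their values stand side by side as one comparison with differing oocytes. IVZ against IVO shares no library with them, and 16 of its 16 lower members were also lower in both. The matching overlap over all genes was not counted, so this overlap is not read as particular to the members. The summed level of the 14 oocyte markers also was lower, at 3560 to 4460 RPKM in IMZ and 3470 to 3660 RPKM in IVZ zygotes, against 5970 to 6350 (IVM), 5490 to 5880 (COC) and 5410 to 5860 RPKM (IVO). Its part in the result was not tested.

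Most β ring genes were lower in zygotes. All 7 β ring genes fell in both in vitro comparisons and 6 of 7 in IVZ against IVO. Psmb1 had 2.83, 3.59, 3.37 and 3.26 RPKM in IVZ zygotes, against 11, 11.8, 12.2 and 11 RPKM in IVO oocytes. No library overlapped, and the log2 fold change was -1.55 ± 0.08 (SE, limma adjusted p = 2.35e-06). In IMZ zygotes it had 3.51, 3.02, 4.15 and 3.48 RPKM, against 12.2, 13.2, 11.7 and 12.1 RPKM in IVM oocytes and 9.54, 12.1, 11.6 and 11.1 RPKM in COC oocytes (-1.56 and -1.41). Psmb6 had 19.9, 18.8, 20.9 and 19.1 RPKM in IVZ zygotes, against 43.2, 46.6, 44 and 49.1 RPKM in IVO oocytes. Again no library overlapped (-1.18 ± 0.07, limma adjusted p = 3.91e-06). In IMZ zygotes it had 19.1, 20.8, 21.6 and 19 RPKM, a level that all 8 zygote libraries shared, against 48.5 to 54.5 RPKM in IVM and 48.5 to 53.4 RPKM in COC oocytes (-1.35 and -1.28).

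The other 2 proteolytic subunits fell as well. Psmb5 had a log2 fold change of -0.90 for IVZ against IVO, -1.12 for IMZ against IVM and -1.10 for IMZ against COC. Psmb7 had -0.40, -0.49 and -0.46 in these comparisons, with 28.8, 34.6, 32.2 and 29 RPKM in IVZ zygotes, against 37.8, 42.2, 41.4 and 44.5 RPKM in IVO oocytes. Each Psmb7 value passed, while the difference between genes was not tested. Psmb4, a structural β subunit, had -1.10, -1.17 and -1.08. Psmb3 had -0.54, -0.43 and -0.36, all called. Psmb2, the remaining β subunit, fell in vitro (-0.43 and -0.38) and had -0.29 for IVZ against IVO (limma adjusted p = 0.208), or -0.50 (adjusted p = 0.0292) without the 4 libraries that stood apart.

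Of the chaperones of core assembly, Psmg3, which pairs with Psmg4, fell in all 3 comparisons (-0.95, -1.14 and -1.01). Psmg4 had 20.5, 16.1, 20.5 and 17.3 RPKM in IVZ zygotes, against 74.8, 29.1, 77.1 and 26.7 RPKM in IVO oocytes, of which replicates 1 and 3 were high. Its log2 fold change was -1.27 ± 0.33 (SE, limma adjusted p = 0.0235) and moved to -0.57 (adjusted p = 0.00817) without those 2 libraries, while the call held in 3 of 8 fits without 1 library. In vitro it was -1.30 against IVM and -1.19 against COC oocytes. Psmg1 fell in the in vitro comparisons (-0.47 and -0.45) and had -0.07 for IVZ against IVO. The test of that difference is given below.

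The α ring was split. Psma5 had 15.5, 17.7, 16.6 and 15 RPKM in IVZ zygotes, against 33.1, 30.4, 30.8 and 31.5 RPKM in IVO oocytes (-0.92 ± 0.07, limma adjusted p = 2.09e-05), and fell in vitro (-1.48 and -1.46). Psma3 fell in all 3 comparisons (-0.78, -0.99 and -0.96). Psma1 fell in vitro (-0.39 and -0.47) and had -0.11 for IVZ against IVO. The other 4 α genes, Psma2, Psma4, Psma6 and Psma7, were called in none of the 3. Psma4 had 120.2, 95, 108 and 99.2 RPKM in IVZ zygotes, against 109.7, 66.6, 117 and 75.2 RPKM in IVO oocytes. Against the 2 IVO libraries left without replicates 1 and 3, the pair in which Psma4 was high, Psma4 passed as higher in IVZ zygotes (0.57, limma adjusted p = 0.00663), as did Psma7 (0.27), Psmc1 (0.45), Psmd1 (0.44) and Psmd10 (0.31), while 16 members were lower, 14 of them among the 16 named before. Over all genes that left 4.66% higher and 17.1% lower. Without IVM replicate 2, the members called for IMZ against IVM were 4 higher and 27 lower (all genes 11.5% and 30.6%), and without COC replicate 3 those for IMZ against COC were 3 higher and 24 lower (10.3% and 26.3%).

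The ATPases were split too. Psmc3 had 22, 23, 26.1 and 21.5 RPKM in IVZ zygotes, against 56.5, 42.9, 57.2 and 46.1 RPKM in IVO oocytes (-1.09 ± 0.11, limma adjusted p = 8.85e-05). Psmc4 had 18.4, 27.1, 26.6 and 21.6 RPKM in IVZ zygotes, against 44.9, 49.1, 45.9 and 47.5 RPKM in IVO oocytes (-0.99, limma adjusted p = 0.000232). Neither gene's groups overlapped. In vitro, Psmc3 had -1.24 and -1.25, and Psmc4 -1.26 and -1.16, against IVM and COC oocytes. Psmc2 fell in all 3 comparisons (-0.37, -0.54 and -0.48), and Psmc6 passed in vitro (-0.42 and -0.40, against -0.10 for IVZ against IVO). The IVZ against IVO call of Psmc2 missed the threshold without the 4 libraries (-0.25, limma adjusted p = 0.055) and held in 6 of 8 fits without 1 library. Psmc1 and Psmc5 passed in none with all libraries. Without the 4 libraries Psmc1 was higher in zygotes in all 3 (0.45 for IVZ against IVO, 0.32 for IMZ against IVM and 0.29 for IMZ against COC). Psmc5 was nearly level, at 57.2, 65.6, 59.8 and 55.1 RPKM in IVZ zygotes and 56.8, 56, 59.3 and 60.2 RPKM in IVO oocytes (0.03).

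Some non-ATPase subunits passed in vitro. Of 10 tested between IVZ and IVO, 0 passed. In IMZ against IVM 3 of 11 fell, beside 27.2% of all genes: Psmd14, which removes ubiquitin chains from the substrate (-0.39), and the lid subunits Psmd6 (-0.38) and Psmd13 (-0.32). Psmd13 was near the lowest level listed, with means of 0.373 RPKM in IMZ zygotes, 0.717 in IVM oocytes and 0.406 in COC oocytes. In IMZ against COC 4 of 11 fell, beside 26.2% of all genes: Psmd7 (-0.49), Psmd4 (-0.45), Psmd14 (-0.41) and Psmd6 (-0.36). The calls of Psmd7 and Psmd4 held in 4 and 2 of 8 fits without 1 library and were lost without COC replicate 3 (limma adjusted p = 0.0746 and 0.0768) and with median of ratios scaling (limma adjusted p = 0.0706 and 0.0856). That of Psmd6 held in 6 of 8 and was lost with that scaling (limma adjusted p = 0.0556). Psmd7 was also called lower against IVM oocytes once IVM replicate 2 was left out (-0.39, limma adjusted p = 0.0402). Psmd1, a large scaffold of the base, was higher in IMZ zygotes, at 69.5, 66.8, 70.7 and 85.9 RPKM, than in COC oocytes, at 54.5, 56.9, 65.9 and 54.2 RPKM (0.33 ± 0.09, limma adjusted p = 0.015). Against IVM oocytes it had 0.27, which did not pass with all libraries but did without IVM replicate 2 (0.39, limma adjusted p = 0.00424). Of the chaperones of the regulatory particle, Psmd5 fell in all 3 comparisons (-0.32, -0.41 and -0.37), Psmd9 in vitro (-0.23 and -0.21) and Psmd10 in none. The IVZ against IVO call of Psmd5 held in 3 of 8 fits without 1 library and was lost with median of ratios scaling (limma adjusted p = 0.0711) and without the 4 libraries (-0.22, limma adjusted p = 0.0668). The calls of Psmd9 held in 5 of 8 fits against IVM and 3 of 8 against COC, and both were lost with median of ratios scaling (limma adjusted p = 0.101 and 0.138), the second also without COC replicate 3 (limma adjusted p = 0.0631).

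The activators went opposite ways. Psme2 fell (-1.03, -1.39 and -1.10), and the first of these moved to -0.66 (limma adjusted p = 0.042) without IVO replicates 1 and 3. Psme3 rose in IMZ zygotes, with 95.8, 95, 96 and 89.3 RPKM, against 82.2, 76.9, 78.7 and 80.8 RPKM in IVM oocytes and 81.2, 85.3, 76 and 83.4 RPKM in COC oocytes. Every IMZ library lay above every oocyte library, with log2 fold changes of 0.24 (limma adjusted p = 0.00992) and 0.21 (adjusted p = 0.0155). For IVZ against IVO it was 0.18 ± 0.08 (limma adjusted p = 0.194). Psme4, a large single-chain activator, rose against IVM oocytes (0.20, limma adjusted p = 0.0377), a call that held in 3 of 8 fits without 1 library. Psme4 had 0.11 against COC and 0.02 for IVZ against IVO. Psmf1, the inhibitor that blocks activator binding, fell in vitro (-0.45 and -0.42) and had -0.36 in vivo (limma adjusted p = 0.0651), or -0.49 (adjusted p = 0.0287) without IVO replicates 1 and 3. Psmc3ip, no subunit, fell in all 3 (-0.56, -0.88 and -0.79), and Psme3ip1 in vitro (-0.35 and -0.35). Without IVO replicates 1 and 3, Psmc3ip moved to -0.34 for IVZ against IVO (limma adjusted p = 0.0178). The Psme3ip1 calls held in 4 of 8 fits without 1 library against IVM and 6 of 8 against COC, and both were lost with median of ratios scaling (limma adjusted p = 0.118 and 0.0565).

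**Figure D2:**
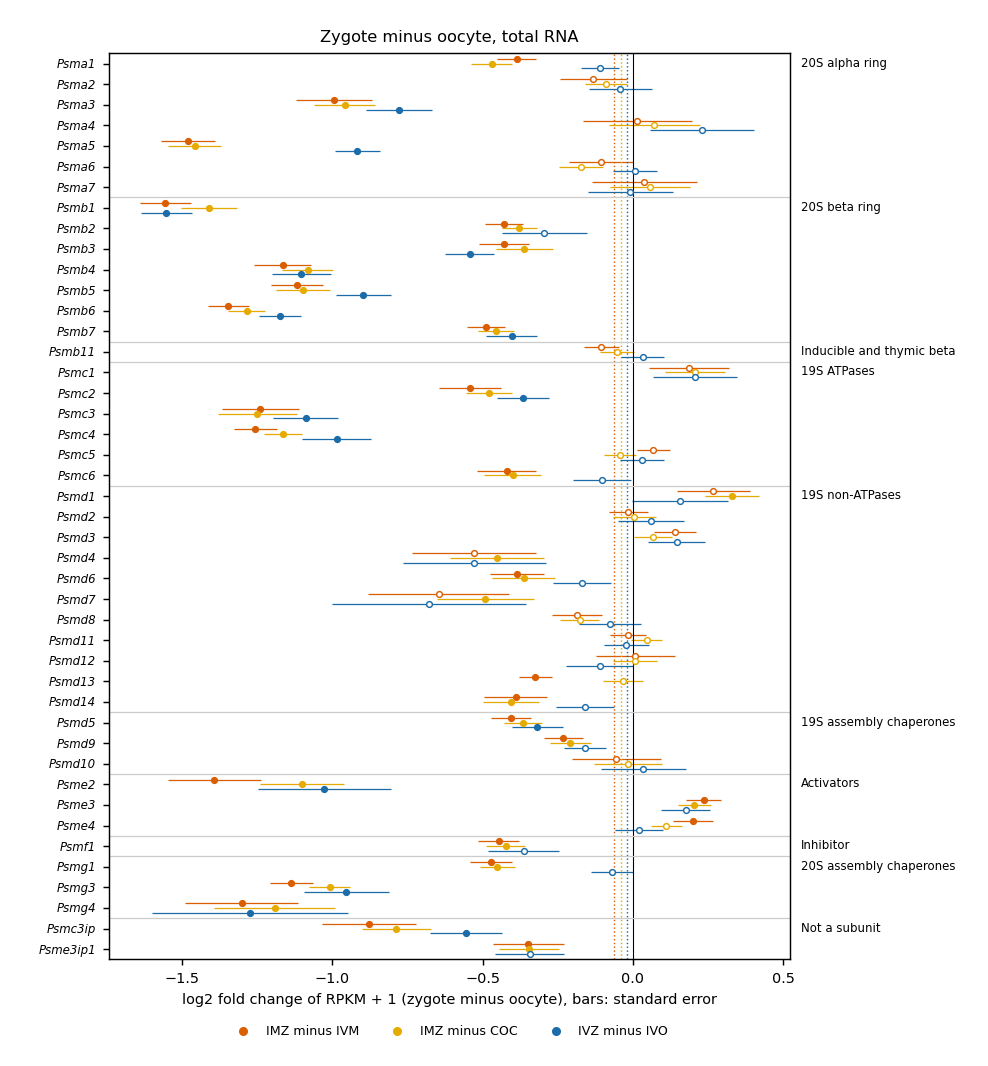
Log2 fold change of RPKM + 1 in total RNA (zygote minus oocyte, n = 4 each) for the 44 members, grouped by role, as IMZ minus IVM, IMZ minus COC and IVZ minus IVO; bars are standard errors, filled points passed an adjusted p of 0.05, and dotted lines are the medians of all genes. The β ring genes lie left of those lines in all 3 comparisons, while Psme3, Psme4 and Psmd1 lie right of 0.

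With another scaling, the median of ratios, the members called were 3 higher and 24 lower for IMZ against IVM (all genes 1719 higher and 2385 lower, instead of 947 and 2929) and 3 higher and 22 lower for IMZ against COC (all genes 1867 and 2405, instead of 1180 and 2819). The 6 members with an element in the last 100 bases, shown above, had a median log2 fold change of -0.73 for IVZ against IVO, and the other 37 had -0.159. The medians of all genes with and without an element in that place were -0.017 and -0.02. For IMZ against IVM the member medians were -0.805 and -0.366. Psmb6, Psmb5, Psmc3 and Psmc4, which hold a signal but no such element there, are among the members that fell most. The 3′ untranslated regions of Psmb6, Psmb5 and Psmc3 (70, 73 and 68 bases) are shorter than the 100 bases searched. The part of the element in these differences was not tested.

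Whether the difference between zygote and oocyte was itself larger in vitro was tested as an interaction in total RNA, added after the data were seen. By limma, 0 of 43 members passed with either oocyte group, against 0 higher and 3 lower of all 10679 genes (0% and 0.0281%) with IVM, and 5 higher and 15 lower of all 10674 genes (0.0468% and 0.141%) with COC. Unadjusted, 4 members were lower in each, among 891 (8.34%) and 994 (9.31%) of all genes in both directions. Without the 4 libraries 0 members passed in either. Psma5 had an interaction of -0.56 ± 0.11 with IVM (SE, limma adjusted p = 0.105) and -0.54 with COC (adjusted p = 0.0709). Psmg1 had -0.40 (limma adjusted p = 0.141) and -0.38 (adjusted p = 0.0717), and Psma1 -0.28 and -0.36 (adjusted p = 0.31 and 0.123). The larger number of members called in vitro is thus not shown to be a larger difference for any single member.

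In polysomal RNA fewer members passed between zygotes and oocytes, and Psmb6 was the member called in all 3 comparisons. It had 28.3, 20.3, 27.7 and 19.5 RPKM in IVZ zygotes, against 91.5, 124, 96.5 and 162 RPKM in IVO oocytes. The groups lay far apart, with a log2 fold change of -2.24 ± 0.32 (SE, limma adjusted p = 0.00394). In IMZ zygotes it had 27.2, 25.5, 37.1 and 30.2 RPKM, against 156, 66.1, 287 and 235 RPKM in IVM oocytes (-2.41, limma adjusted p = 0.0175) and 122, 60.5, 138 and 134 RPKM in COC oocytes (-1.83, adjusted p = 0.00128). The Psmb6 call against IVM oocytes held in only 2 of 8 fits with a library left out (limma adjusted p up to 0.0838). Its calls for IVZ against IVO and IMZ against COC held in all 8 such fits.

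Psmb1 behaved alike. It had 4.55, 8.57, 10.4 and 14.7 RPKM in IVZ zygotes, against 48.6, 38.3, 27.3 and 39.1 RPKM in IVO oocytes (-1.97, limma adjusted p = 0.0411). In IMZ zygotes it had 8.88, 8.89, 9.26 and 11.8 RPKM, against 69.5, 17.9, 51.4 and 36.1 RPKM in IVM oocytes (-1.92, limma adjusted p = 0.0542, which misses the threshold). Against COC oocytes, at 27.6, 40.8, 30.7 and 37.1 RPKM, it fell (-1.70, limma adjusted p = 0.00253). The groups overlapped in none of the 3. The IVZ against IVO call held in 2 of 8 fits without 1 library (limma adjusted p up to 0.199) and was lost with a pseudocount of 0.1 (limma adjusted p = 0.0507).

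The counts in polysomal RNA were 1 member higher and 2 lower of 40 for IVZ against IVO (all genes 0.0998% higher and 0.349% lower), 0 higher and 1 lower of 32 for IMZ against IVM (0.0224% and 0.514%) and 0 higher and 7 lower of 40 for IMZ against COC (0.218% and 3.77%). Beside Psmb6 and Psmb1, those lower against COC were Psmg4 (-1.62), Psmc4 (-1.21), Psmb4 (-1.13), Psmf1 (-1.02) and Psmd4 (-0.92). The calls of Psmc4, Psmb4, Psmf1 and Psmd4 held in 2 to 4 of 8 fits without 1 library, and all 4 were lost with median of ratios scaling (limma adjusted p = 0.0585 to 0.111). Single libraries decided several of these counts. For IVZ against IVO, 1 member was left without IVZ replicate 2 or 3 or without any of the 4 IVO libraries. For IMZ against IVM, none was left without IMZ replicate 2, 3 or 4 or IVM replicate 3 or 4, and 3 passed without IVM replicate 1 or 2. For IMZ against COC, 3 were left without IMZ replicate 3 or COC replicate 2 or 4, and 4 without COC replicate 3. The authors marked IVM replicate 1 and IVZ replicate 1 of the polysomal RNA as excluded. Without them the counts were 3 for IMZ against IVM and 3 for IVZ against IVO.

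**Figure D3:**
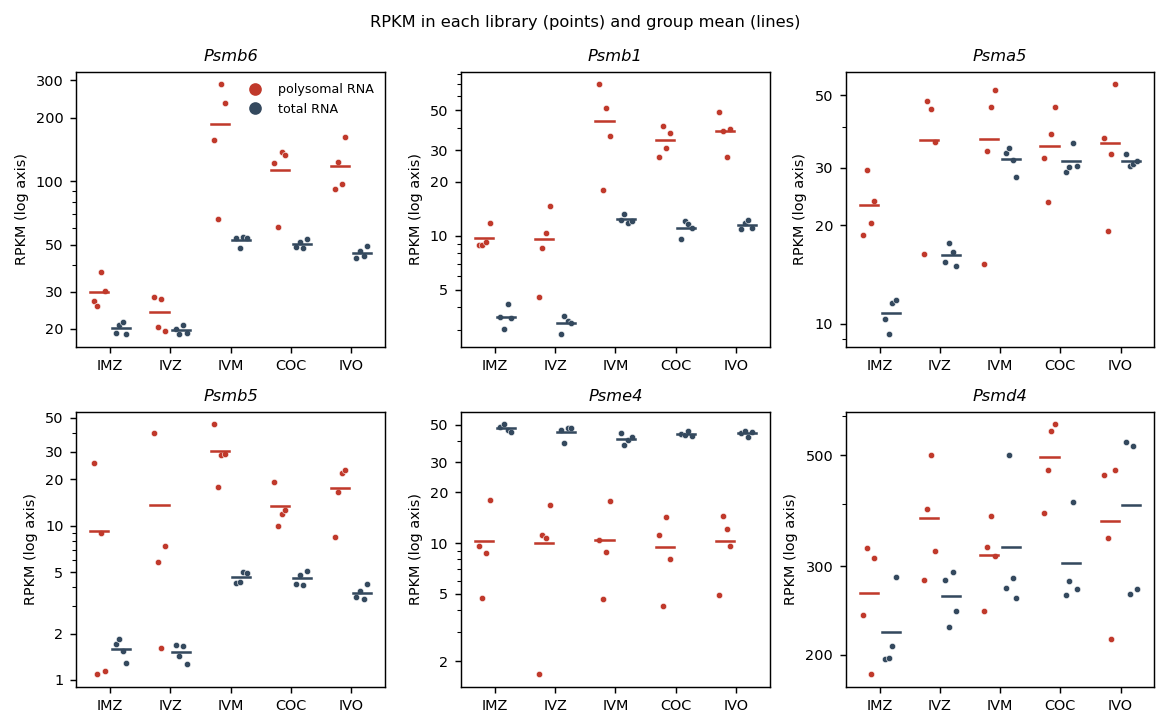
RPKM of 6 members in each library (points, log axis) with group means (lines), in polysomal and total RNA, for IMZ and IVZ zygotes and IVM, COC and IVO oocytes (4 libraries each). Psmb6 and Psmb1 are lower in zygotes than in oocytes in both fractions, Psma5 is lower in zygotes in total RNA while its polysomal groups overlap, and Psme4 is lower in polysomal than in total RNA in every group.

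Psma2, an α subunit, was the member that was higher in polysomal RNA of zygotes. It had 41.1, 48.6, 64.7 and 40.1 RPKM in IVZ zygotes, against 12.9, 15.1, 13.4 and 17.9 RPKM in IVO oocytes (1.63 ± 0.33, limma adjusted p = 0.0439). The groups did not overlap, but the call held in only 1 of 8 fits without 1 library (limma adjusted p up to 0.191). In total RNA it had 31.7, 30.4, 29.3 and 30.4 RPKM in IVZ zygotes and 35.2, 27.6, 36.5 and 27.2 RPKM in IVO oocytes, within one range. Whether the difference between stages differs between fractions was tested as an interaction, also added after the data were seen. For IVZ and IVO, Psma2 was the only one of 40 members called (1.67 ± 0.29, limma adjusted p = 0.0273), among 5 of all 6002 genes higher (0.0833%) and 0 lower (0%). That call held in 6 of 16 fits without 1 library. It was lost without polysomal IVZ replicate 2 or 3 or polysomal IVO replicate 1 or 3, and without any of the total RNA libraries of IVZ or replicates 1 or 3 of IVO, at limma adjusted p-values up to 0.106, and without both of those IVO libraries it was 1.49 (limma adjusted p = 0.401). For IMZ and COC, 0 of 40 members passed (all genes 0.117% higher, 0% lower), where Psma2 had 0.91 (limma adjusted p = 0.238). For IMZ and IVM, 0 of 32 passed (0% each way). Psma5, lower in total RNA of zygotes, had interactions of 0.92, 0.95 and 0.90 with IVZ and IVO, IMZ and IVM, and IMZ and COC, none of which passed (limma adjusted p = 0.453, 0.676 and 0.217).

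Polysomal RNA was then set against total RNA of the same cell group, which describes how well a transcript is represented among translated messages. The 2 fractions share no table, and the labels do not say whether a polysomal and a total library of one code came from one collection, so they were tested unpaired. The median log2 difference of all genes was -0.51 in IMZ, -0.38 in IVZ, -0.50 in IVM, -0.40 in COC and -0.55 in IVO, so values are best read against these medians. In IMZ 12 of 40 members were higher and 11 lower in polysomal RNA (all genes 15.1% and 46%), and in IVZ 10 and 4 of 40 (10.9% and 30.1%). In oocytes 9 and 9 of 34 were so in IVM (14.9% and 38.9%), 16 and 14 of 43 in COC (23.4% and 44.3%) and 10 and 15 of 42 in IVO (13.9% and 45.2%). With median of ratios scaling, which moved those medians of all genes to between -0.10 and -0.04, the members were 16 and 5 in IMZ, 16 and 3 in IVZ, 10 and 4 in IVM, 20 and 12 in COC and 15 and 6 in IVO. All genes then were 26.5% and 26.5%, 17.2% and 17.8%, 22.5% and 19.5%, 30.5% and 32.9%, and 24.7% and 24.5%. In IVZ the count of 14 members called fell to 8 without total replicate 1, 3 or 4 and to 9 without total replicate 2, and was 20 without polysomal replicate 1. Without total replicates 1 and 3 of IVO, 7 members were higher and 7 lower there (all genes 7.02% and 31.1%). Without IVM replicate 2 and COC replicate 3 of total RNA, the counts were 9 higher and 9 lower for IVM and 16 higher and 13 lower for COC (all genes 11.9% and 32.4%, and 20.5% and 41%).

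Most β ring genes were higher in polysomal RNA. This held for 5 of 6 genes in IMZ, 4 of 6 in IVZ, 6 of 7 in IVM, 7 of 7 in COC and 6 of 7 in IVO, and no β ring gene was lower in any group. Psmb2 had 85.6, 44.9, 114 and 109 RPKM in polysomal RNA of IVO oocytes, against 27.7, 43.1, 31.3 and 36.1 RPKM in total RNA. The lowest polysomal library lay just above the highest total one (1.26 ± 0.29, limma adjusted p = 0.0033). Psmb1, Psmb2 and Psmb7 were higher in all 5 groups and in every fit without 1 library, although the IVO call of Psmb2 was lost without both total replicates 1 and 3 (1.06, limma adjusted p = 0.0573). Psmb7 had differences of 1.23 in IMZ, 1.32 in IVZ, 1.09 in IVM, 1.48 in COC and 1.24 in IVO. Psmb4 and Psmb6 were called in 4 groups, and Psmb6 had 1.61 in IVM and 1.32 in IVO oocytes, against 0.54 in IMZ and 0.25 in IVZ zygotes (not called). In COC oocytes Psmb6 had 0.97 to 1.36 over the 8 fits without 1 library. Its interaction of stage with fraction was -1.07 for IVZ and IVO and -1.07 for IMZ and IVM, which did not pass (limma adjusted p = 0.202 and 0.676). For IMZ and COC the lowest interaction among the β ring genes was smaller in size, at -0.54, and 0 passed. Psmb5, also called in 4 groups, scattered widely among zygote polysomal libraries, at 25.6, 1.09, 9.02 and 1.15 RPKM in IMZ and 39.97, 5.79, 1.62 and 7.33 RPKM in IVZ, and its IVZ call held in 2 of 8 fits without 1 library. The IMZ call of Psmb6 held in 6 of 8. The 39.97 RPKM of Psmb5 came from IVZ replicate 1, which the authors marked as excluded.

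Psmg4 and Psmd8, a lid subunit, were the other members higher in all 5 groups. Psmg4 had 182, 134, 126 and 171 RPKM in polysomal RNA of COC oocytes, against 25.2, 27.4, 51.2 and 28.5 RPKM in total RNA (2.22 ± 0.22, limma adjusted p = 1.61e-05). Its difference ran from 1.50 in IVO to 2.42 in IVZ. Psmd8 had 177, 133, 100.5 and 161 RPKM in polysomal RNA of IVO oocytes, against 56.9, 57.4, 54.9 and 58.4 RPKM in total RNA (1.28 ± 0.21). No polysomal library of either gene overlapped its total libraries there. The inhibitor Psmf1 was higher in IMZ (0.72), COC (1.31) and IVO (0.81). Psmd9, a chaperone of the regulatory particle, was higher in the 3 oocyte groups (0.98 in IVM, 1.01 in COC and 0.82 in IVO), where the IVO call held in 1 of 8 fits without 1 library (limma adjusted p up to 0.0951). Without total replicates 1 and 3 of IVO, neither Psmf1 (0.68, limma adjusted p = 0.0753) nor Psmd9 (0.80, limma adjusted p = 0.15) passed there.

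At the other end, Psme4 was lower in polysomal RNA in all 5 groups. It had 4.95, 14.4, 12.1 and 9.67 RPKM in polysomal RNA of IVO oocytes, against 44.7, 46.1, 42.1 and 45.4 RPKM in total RNA. Its difference was -2.25 in IMZ, -2.35 in IVZ, -2.02 in IVM, -2.22 in COC and -2.10 in IVO, and it was called in every fit without 1 library and under the other scaling. The scaffold Psmd1 and the lid subunit Psmd3 were lower in all 4 groups where they were tested. The scaffold Psmd2 was lower in 4 of 5 groups, as were Psma4, Psmc1, Psmc6, Psme3 and Psme3ip1. Median of ratios scaling ended many of these calls: Psmd2 in IMZ, IVZ and IVM, Psmc1 in IMZ, IVM and IVO, Psmc6 in IMZ and IVM, Psme3 in IVM and IVO, Psme3ip1 in IMZ and IVO, and Psma4 in IVO. Without total replicates 1 and 3 of IVO, Psma4, Psmc1 and Psme3ip1 were not called there either. Psmd1 had 18.5, 25.2, 16.7 and 18.9 RPKM in polysomal RNA of IVO oocytes, against 84.8, 55.1, 82.6 and 57.9 RPKM in total RNA (-1.76 ± 0.22, limma adjusted p = 9.79e-05). Psma4, in the same ring as Psma5, had -1.41 in IVO and -1.36 in IMZ. Psma5 was higher in the zygotes (1.01 in IMZ and 1.02 in IVZ) (the IVZ call held in 1 of 8 fits without 1 library) and near 0 in COC (0.12) and IVO (0.09). Psma2 alone was called both ways, higher in IMZ (0.51) and IVZ (0.63) and lower in IVO (-1.04), the last of which was not called with median of ratios scaling (-0.45, limma adjusted p = 0.0793). The IMZ call held in 1 of 8 fits without 1 library and the IVZ call in 4 of 8.

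**Figure D4:**
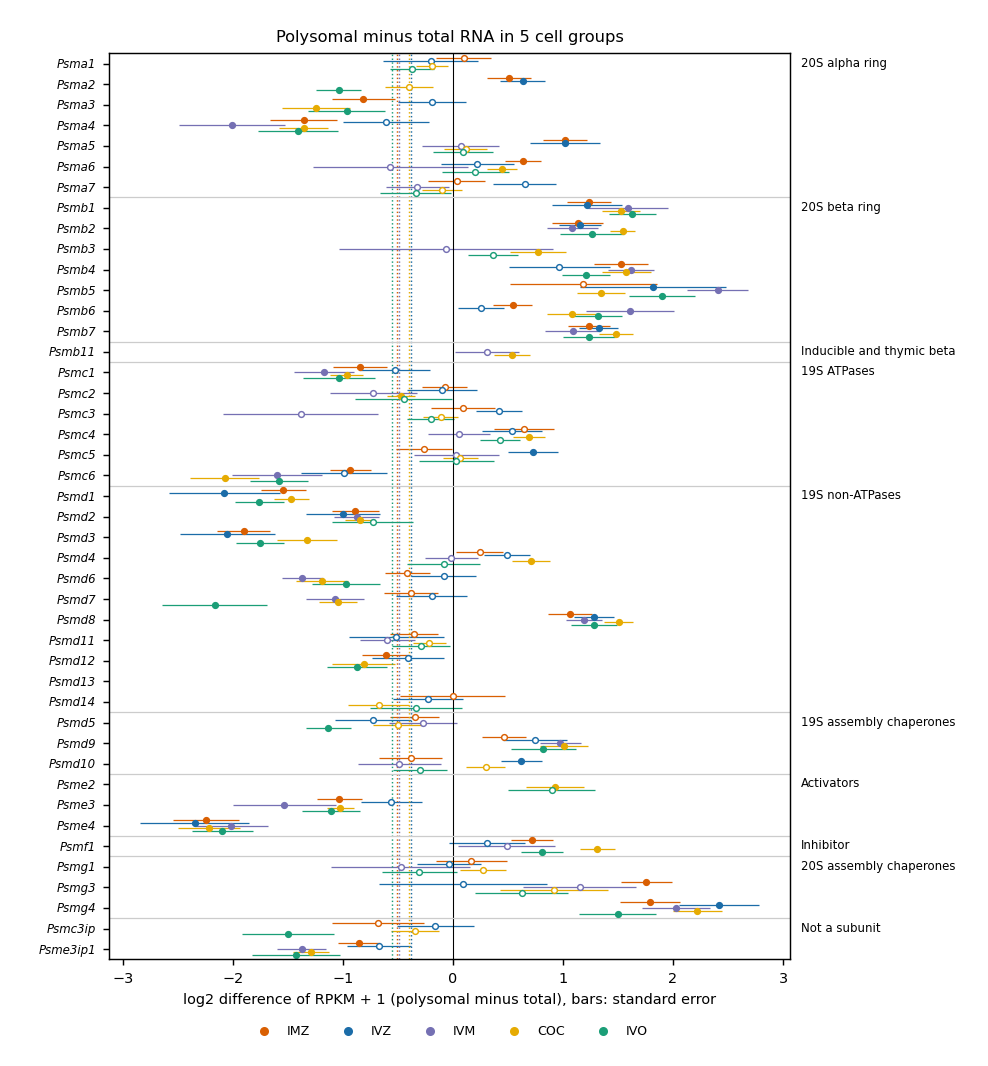
Log2 difference of RPKM + 1 (polysomal minus total RNA, n = 4 each) for the members in IMZ, IVZ, IVM, COC and IVO, grouped by role; bars are standard errors, filled points passed an adjusted p of 0.05, and dotted lines are the medians of all genes in each group. Psmb1, Psmb2, Psmb7, Psmd8 and Psmg4 lie right of 0 and filled in all 5 groups, and Psme4 lies left of 0 and filled in all 5.

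Members with longer transcripts had a lower polysomal share. Across members the Spearman rho between transcript length and the polysomal minus total difference was -0.58 in IMZ (n = 40), -0.59 in IVZ (n = 40), -0.46 in IVM (n = 34), -0.55 in COC (n = 43) and -0.57 in IVO (n = 42). Across all genes it was -0.45, -0.47, -0.42, -0.43 and -0.45 in the same groups. Genes within a library share its depth and preparation and are not independent replicates, so no test is given. The correlation with GC content was positive among members (0.36 in IMZ, 0.35 in IVZ, 0.5 in IVM, 0.47 in COC and 0.45 in IVO) and among all genes (0.47, 0.42, 0.53, 0.57 and 0.53). The part of length or GC content in the differences of single members was not tested.

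**Figure D5:**
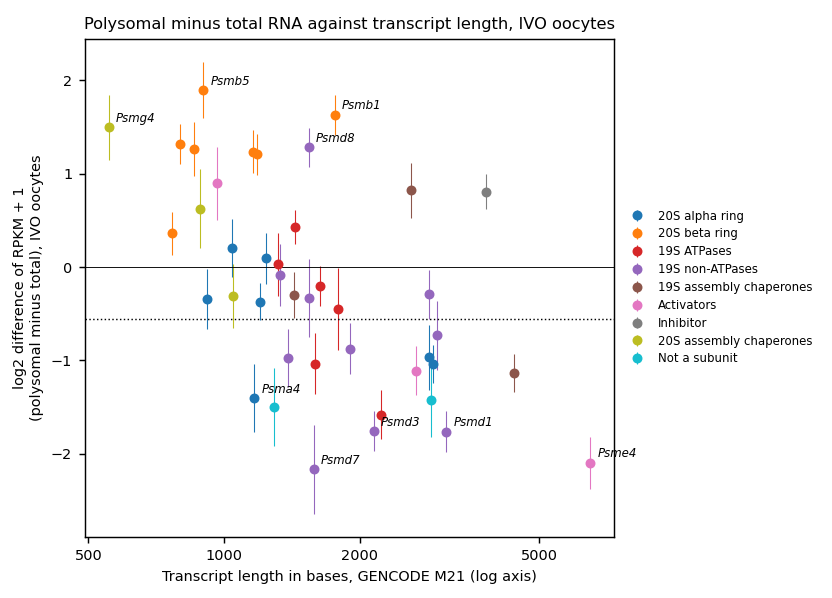
Log2 difference of RPKM + 1 (polysomal minus total RNA, IVO oocytes, n = 4 each) against transcript length in bases (log axis) for 42 members, coloured by role; bars are standard errors and the dotted line is the median of all genes, -0.55. The short β ring genes lie above 0 and Psme4, the longest, lies near -2.10, while Psmb1 and Psmf1 lie high and Psmd7 low for their length.

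The rest of the pathway was described by a list of 46 genes for ubiquitin, its enzymes and shuttles, and other partners of the proteasome, all of which were tested in total RNA. None passed between the oocyte groups, and between IMZ and IVZ zygotes Zfand2a, a stress-inducible partner, was lower (-0.54, limma adjusted p = 0.0163). In IVZ against IVO, 10 of 46 fell and 0 rose, in IMZ against IVM 12 fell and 3 rose, and in IMZ against COC 13 fell and 7 rose, beside the shares of all genes given above. Rps27a, which encodes ubiquitin fused to a ribosomal protein, had -1.46 (IVZ against IVO), -1.69 (IMZ against IVM) and -1.32 (IMZ against COC), and the polyubiquitin gene Ubb had -0.72, -0.87 and -0.91, all called. Sem1, a small lid subunit whose symbol lies outside the name rule, had -2.17, -2.49 and -2.58. Adrm1, a ubiquitin receptor of the regulatory particle, had -0.48, -0.55 and -0.54. In polysomal against total RNA, Pomp, the chaperone of β ring maturation, was higher in all 5 groups, as were Adrm1, Rps27a, Ubb, Stub1 and Ube2c. In all, 9 of 41 of these genes were higher there in IMZ, 8 of 41 in IVZ, 9 of 36 in IVM, 12 of 39 in COC and 8 of 39 in IVO. Beside them, 15.1%, 10.9%, 14.9%, 23.4% and 13.9% of all genes were higher. Lower were 21, 13, 15, 19 and 18 of these genes, beside 46%, 30.1%, 38.9%, 44.3% and 45.2% of all genes.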

How the data were processed

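RNA of mouse oocytes and zygotes was measured in 40 libraries, 4 for each of 10 groups. Per the labels' protocols, libraries came from a stranded SMARTer total RNA kit (version v2) for picogram inputs. DRAGEN (without a version) and the build GRCm39 are named by the submitters' processing notes. Aligner settings, annotation, counting strand and the authors' test were not found in the labels or headers. The authors deposited 8 tables, 1 for each of 4 comparisons in each fraction, with an RPKM value per gene and library, per the file headers. Beside these stand the authors' log2 fold change, the authors' signed fold change (treated here as a score, since it has no values between -1 and 1) and the authors' p-value for every gene. No deposited table lists a gene that is under 0.2 RPKM in any of its 8 libraries. Libraries held in more than 1 table carry identical values (largest difference 0), and 0 columns of other samples were found. Polysomal IVM replicate 1 and IVZ replicate 1 are marked as excluded by the authors after a principal component analysis, per the file headers, and were kept here, with results without them as alternatives.

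The members, gene lists and tests were chosen with earlier results of these data known. Differences were tested on log2(RPKM + 1) with limma 3.58.1 (trend) in R 4.3.3 over all genes of a comparison, with Benjamini-Hochberg adjustment at 0.05. A count test had been planned only in case the tables held counts. The fit was tested on simulated data. Oocyte and zygote libraries, and polysomal and total libraries, share no table, so those comparisons use genes listed for both groups. Whether replicates stem from separate animals is not in the labels, and p-values therefore reflect only how these libraries scatter, which may be technical. Depth was estimated from the step that 1 read makes in low RPKM values, using GENCODE M21 gene lengths, which also gave transcript lengths and 3′ sequences (Python 3.11.15); no coordinates were used. Named genes follow this rule: every called member where 10 or fewer were called in a comparison, otherwise the 6 highest and 6 lowest, the 3 smallest p-values where none was called, and a fixed set of proteolytic, activator and inhibitor genes. Other called members were named by role after their values were seen. Alternatives were median of ratios scaling, a pseudocount of 0.1, a mean of at least 1 RPKM, a replicate block, each library left out and, added after the data were seen, 4 total RNA libraries left out and 5 interactions with stage. Some genes of the list of 46 ubiquitin pathway genes count in its totals but are not reported here by name.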

Additional observations from a re-analysis of the deposited data

Results flagged for a closer look

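In groups of 4 libraries, 21 of 233 member and group pairs screened (9.01%) had 1 library far from the others by Dixon's criterion. Chance alone gives about 5%. The screen covered only part of the members, so its share does not describe all of them and the list below is not complete. Psmd7, for example, was not screened, although its total RNA values in IVM oocytes, given above, hold 1 far higher library. In total RNA of COC oocytes, replicate 3 was the high one for Psmd4 (403 RPKM), Psma7 (192), Psma4 (112), Psmd8 (64.5), Psmg4 (51.2) and Psma5 (35.8). In total RNA of IVM oocytes, replicate 2 was high for Psmd4 (499.8 RPKM), Psmc3ip (57.5) and Psmg4 (52.1) and low for Psmb6 (48.5). In total RNA of IMZ zygotes, replicate 4 was high for Psmd4 (286 RPKM) and low for Psme3 (89.3) and Psmd13 (0.255), and replicate 3 was high for Psmb7 (35.2). In total RNA of IVZ zygotes, replicate 2 was low for Psme4 (39.3 RPKM). In polysomal RNA, Psmb1 was high in IMZ replicate 4 (11.8 RPKM), Psmb5 in IVZ replicate 1 (39.97) and Psmd3 in COC replicate 3 (33.0). Psma7 was low in IVZ replicate 4 (138 RPKM), Psmc6 in IMZ replicate 1 (6.2) and Psmf1 in IVM replicate 1 (17.5).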

How the results depend on the processing

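Counts are of members called by limma, both directions together. Median of ratios scaling gave 3 for IMZ against COC in polysomal RNA, instead of 7. The replicate block gave 1 for IMZ against IVZ in total RNA, instead of 3, and 2 for IMZ against IVM in polysomal RNA, instead of 1; no pairing is known, since in no comparison were all 4 correlations of same-numbered deviations over 0.1, although in 3 comparisons 3 of 4 were. Without the 4 total RNA libraries that stood apart, 1 member passed for IVM against IVO, instead of 0, 14 for polysomal against total RNA in IVO, instead of 25, and 0 for the interaction of stage and fraction in IVZ and IVO, instead of 1. With 1 library left out, counts ran from 0 to 7 for IMZ against IVZ in total RNA, from 13 to 17 for IVZ against IVO, from 25 to 31 for IMZ against IVM and from 24 to 29 for IMZ against COC. In polysomal RNA they ran from 1 to 3 for IVZ against IVO, from 0 to 3 for IMZ against IVM and from 3 to 8 for IMZ against COC. For polysomal against total RNA they ran from 19 to 27 in IMZ, 8 to 20 in IVZ, 17 to 23 in IVM, 28 to 35 in COC and 21 to 30 in IVO, and for the interaction of stage and fraction in IVZ and IVO from 0 to 1. All other counts of called members stayed within 1.5 times under the alternatives run. Of 198 single calls, 157 held in every fit without 1 library. Over all alternatives, 249 values of single called members missed the threshold, 2279 kept it and 0 turned direction. With median of ratios scaling 36 missed it, 23 of them in polysomal against total RNA, and with the replicate block 14. The cause was not tested. Polysomal libraries, with less depth and lower correlation, limit what can be detected there.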
